A study of Rattus norvegicus with 40 samples.

Results

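The comparison described here set adrenal glands of adult female Sprague Dawley rats exposed to the highest dose of a mixture of organophosphate esters, named 30000x in the labels, against adrenal glands of female controls. Its libraries were chosen by the sex and the dose in their labels, and 10 of the 40 libraries of the study belong to it, 5 at 30000x and 5 controls. The other libraries are females at the doses named 30x and 1000x and males at every dose and as controls. All animals were Sprague Dawley rats, an outbred laboratory stock, and received no genetic change that the labels record. The labels do not give an age beyond adult, the route or length of exposure, what the controls received, or the amount behind the multiple of 30000. They call the 5 libraries of a group biological replicates without naming the animals, so p-values measure the spread between these libraries.

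Organophosphate esters are used as flame retardants and plasticizers and leach from the materials that hold them. The adrenal gland joins a cortex, which makes mineralocorticoids and glucocorticoids from cholesterol, to a medulla, whose chromaffin cells release catecholamines. The cortex answers to pituitary adrenocorticotropic hormone and, in its outer zone, to angiotensin and potassium, and in rats the gland is larger in females than in males. In RNA from a whole gland, fewer cells of a type and less RNA per cell cannot be told apart.

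Gene expression was deposited as FPKM, fragments per kilobase of gene scaled for depth, for genes listed by Ensembl identifier. Neither the files nor the gene name table used here pairs these identifiers with names, and 0 of them matched, so genes are described by identifier, abundance and length, and the identity of the tissue was not checked against marker genes. The whole reads behind the FPKM, recovered from the steps between low values, came to 13527205 to 19744480 per library at 30000x and 15738507 to 18537968 per control library. All gene lengths given here were solved from the same FPKM and were not taken from an annotation. No sequencing batch is named in the labels.

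Replicate 5 of the 30000x group stood apart from the other 9 libraries, so results are given with and without it. Its median correlation with the other libraries of its group, over the genes tested, was 0.899, while the other 4 libraries at 30000x had 0.957 to 0.958 and the controls 0.944 to 0.962. It held 11905 genes at 1 FPKM or more, while the other 4 libraries at 30000x held 12390 to 12582 and the controls 12168 to 12711. Its size factor, the scale by which the authors' values set libraries level, was 0.58, while the other 4 had 0.79 to 1.14 and the controls 0.90 to 1.18. Of 12440 genes tested, 3437 were highest and 3744 were lowest in this library. The next library by this count was control replicate 1, with 1639 genes above and 1682 below the other 9. On the first principal component, which held 38.0% of the variance, replicate 5 lay at 83.7 and the other 9 libraries lay between -25.4 and 1.99. Without it the first component held 26.6% of the variance and did not part the groups: the 4 libraries at 30000x lay between 3.61 and 21.4, inside the controls' range of -36.1 to 33.05.

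**Figure D1:**
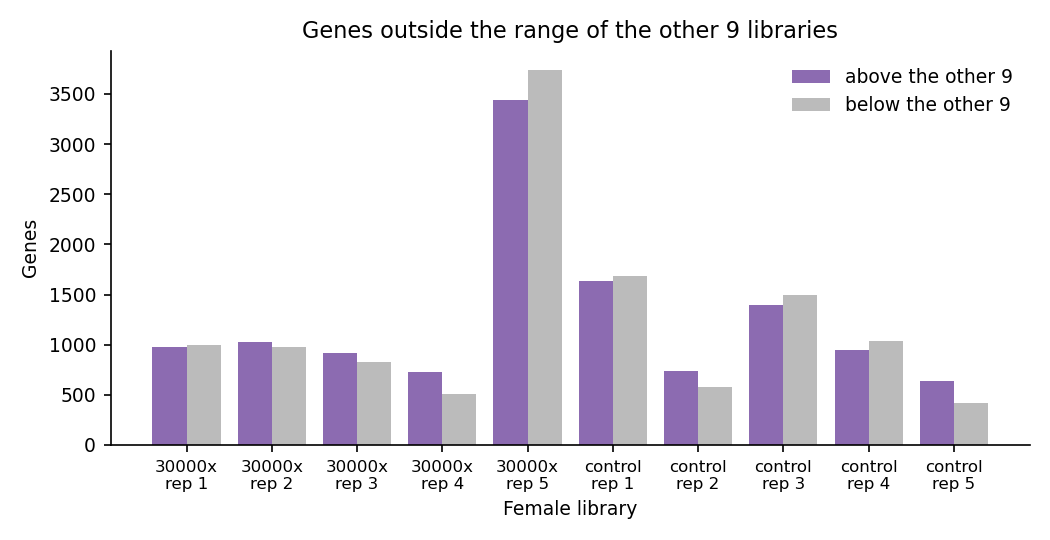
Number of genes (vertical axis, of 12440 tested) that lay above or below the other 9 libraries in each female library. Replicate 5 at 30000x had 3437 genes above and 3744 below the others, and control replicate 1 came next with 1639 and 1682.

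The genes outside the others' range in replicate 5 differed in abundance more than in length. It was the highest library for 18.9% of genes with a mean under 5 FPKM and for 40.9% of genes with a mean of 100 to 1000 FPKM. It was the lowest for 31.3% and 19.8% of these classes. Across 5 classes of gene length, from under 500 bp to 6000 bp or more, the share above the others ran from 25.1% to 30.0% and the share below from 27.3% to 31.9%. Abundant genes were more often highest than lowest in this library, and scarce genes more often lowest than highest.

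The genes farthest above the others in replicate 5 were ENSRNOG00000021029 (360 bp) and ENSRNOG00000038205 (207 bp). ENSRNOG00000021029 stood at 1019 FPKM in replicate 5, at 3.99 to 109.0 FPKM in the other 4 libraries at 30000x and at 1.06 to 47.2 FPKM in the controls. It also spread widely in the other female groups, from 10.9 to 85.9 FPKM at 30x and from 6.93 to 157 FPKM at 1000x. ENSRNOG00000038205 stood at 298 FPKM in replicate 5, at 20.5 to 30.0 FPKM in the other 4 and at 14.5 to 33.5 FPKM in the controls. Its male libraries at 30000x lay between 14.99 and 28.22 FPKM. The genes farthest below the others were ENSRNOG00000032997 (69 bp) and ENSRNOG00000032609 (72 bp), each with 0 reads in replicate 5. The other 4 libraries at 30000x held 224 to 347 reads of ENSRNOG00000032997, and the controls held 146 to 329. For ENSRNOG00000032609 the other 4 held 63 to 141 reads and the controls 58 to 138. These 4 genes were ranked by their distance from the other libraries, so the distances are a description and carry no test.

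No gene passed the test of 30000x against controls. With limma on log2(FPKM + 1) and Benjamini-Hochberg adjustment, 0 of 12440 genes (0%) had an adjusted p under 0.05, and the smallest adjusted p was 0.702. At an unadjusted p under 0.05 there were 852 genes, 6.85% of those tested, of which 446 were higher and 406 lower at 30000x. The split depends on the scaling: after scaling to library totals there were 1605 such genes, 110 higher and 1495 lower. Without control replicate 1, 3 or 4 the count was 1302, 463 or 509. Without replicate 5 the test called 0 of 12306 genes (0%), with 794 (6.45%) at an unadjusted p under 0.05, 421 higher and 373 lower, and a smallest adjusted p of 0.763. A voom fit to the recovered reads called 0 genes too, with 838 at an unadjusted p under 0.05. In 1 fit a gene was called: without control replicate 3 the count was 1 of 12244. That gene, ENSRNOG00000053931 (134 bp), was chosen after its values were seen.

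ENSRNOG00000053931 had 5.96, 6.26, 3.21, 3.70 and 5.83 FPKM in the 5 libraries at 30000x, from 6 to 16 reads each. The controls had 0.47, 0.41, 4.88, 0 and 0.42 FPKM, from 12 reads in replicate 3 and 0 or 1 in each of the other 4. The groups overlapped through control replicate 3 alone, and the gene rests on few reads. Its log2 change came to 1.73 (SE 0.42, limma adjusted p = 0.702) with all 10 libraries, 1.67 (SE 0.46, limma adjusted p = 0.763) without 30000x replicate 5 and 2.16 (SE 0.23, limma adjusted p = 0.021) without control replicate 3. Across the female groups it averaged 1.24 ± 2.05 FPKM in controls, 3.71 ± 2.44 at 30x, 2.11 ± 1.83 at 1000x and 4.99 ± 1.42 at 30000x (SD, n = 5 each).

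The size of change that this comparison could show is given by the intervals. The median half-width of the 95% interval of a gene's log2 change was 0.41 with all 10 libraries and 0.36 without replicate 5. The interval lay within ±1 for 83.5% of genes with all 10 libraries and for 89.01% without replicate 5. It lay within a 1.5-fold change in either direction for 49.1% and 61.9% of genes. Adding 1 to the FPKM shrinks the log2 change of scarce genes, for which an interval within ±1 leaves room for a larger change. For genes shorter than 500 bp the median half-width was 0.87, and for genes with a mean of 20 to 100 FPKM it was 0.35. A change of at least 1 in either direction was estimated for 161 genes, 101 higher and 60 lower at 30000x. Of these, 56 of the 101 and 27 of the 60 were still at 1 or beyond without replicate 5. Such figures depend on the fit. In the voom fit to the recovered reads of all 10 libraries, 445 genes had an estimated change of at least 1. The split was the other way, with 194 higher and 251 lower at 30000x. In that fit 73.3% of intervals lay within ±1 and 40.1% within a 1.5-fold change, with a median half-width of 0.46.

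Leaving out replicate 5 turned the sign of the estimated change in 2304 of 12306 genes. The lists at an unadjusted p under 0.05 shared 538 genes, which is 63.1% of the list from 10 libraries and 67.8% of the list from 9, and these had the same sign in both. The median gene had an SD of 0.32 on the log2 scale at 30000x and 0.24 in controls, and 0.22 at 30000x without replicate 5. The median size of a gene's change was 0.17 with all 10 libraries and 0.13 without replicate 5.

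**Figure D2:**
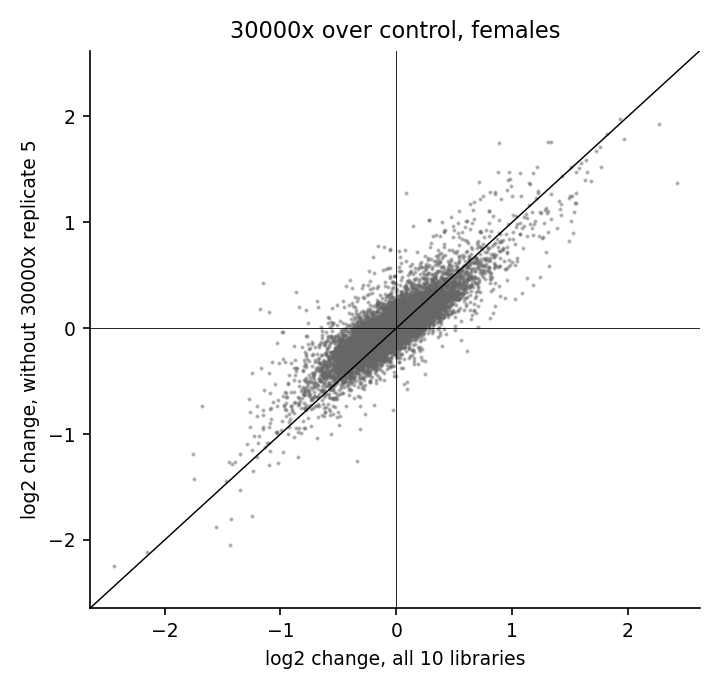
Each point is 1 of 12306 genes, with its log2 change (30000x over control) from all 10 female libraries on the horizontal axis and from 9 libraries, without 30000x replicate 5, on the vertical axis. The line marks equal values, and 2304 genes lie in quadrants where the sign differs.

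The 5 libraries at 30000x lay all above or all below the 5 controls in 138 genes, 1.11% of those tested, with 58 above and 80 below. Without replicate 5 the 4 remaining libraries were apart from the controls in 213 genes (1.73%), 97 above and 116 below. The libraries can be split in 252 ways with replicate 5 and in 126 ways without it. Groups are thus more often apart by chance without it, and the rise from 138 to 213 genes cannot be read as clearer separation. From the 49 higher and 55 lower genes of this kind that were not scarce (5 FPKM or more on average in either group), those with the smallest p are described next. They were selected on this contrast, so the gap between their groups is a property of the choice, and none passed the test.

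ENSRNOG00000013911 (1488 bp) had 45.2, 44.2, 39.1, 31.2 and 30.9 FPKM at 30000x, against 26.0, 25.1, 19.6, 15.7 and 20.99 FPKM in controls. The lowest libraries at 30000x were replicates 4 and 5, and the highest controls were replicates 1 and 2. It averaged 38.1 ± 6.88 FPKM at 30000x and 21.5 ± 4.20 FPKM in controls (SD, n = 5 each), from 470 to 1349 reads per library at 30000x and 483 to 684 in controls. At 30000x over control the log2 change came to 0.80 (SE 0.17, 95% interval 0.44 to 1.17, limma adjusted p = 0.702), and without replicate 5 it was 0.87 (SE 0.16, limma adjusted p = 0.763). At the lower doses, which share the same controls, its mean ± SD was 40.1 ± 14.6 FPKM at 30x, and 34.2 ± 14.99 FPKM at 1000x (n = 5 each), with libraries down to 22.2 and 19 FPKM inside the controls' range. In males it averaged 28.0 ± 2.47 FPKM at 30000x and 31.1 ± 10.9 FPKM in controls (SD, n = 5 each).

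ENSRNOG00000048849 (1445 bp) had 7.25, 7.50, 9.64, 6.23 and 11.3 FPKM at 30000x, against 4.97, 4.88, 4.19, 4.89 and 5.01 FPKM in controls. Replicate 5 was its highest library, and the controls spanned less than 1 FPKM. At 30000x over control the log2 change came to 0.67 (SE 0.16, 95% interval 0.33 to 1.01, limma adjusted p = 0.702), and without replicate 5 it was 0.57 (SE 0.13, limma adjusted p = 0.763). It averaged 4.79 ± 0.34 FPKM in controls, 6.68 ± 1.35 at 30x, 5.56 ± 1.17 at 1000x and 8.38 ± 2.05 at 30000x (SD, n = 5 each), so that the level at 1000x lay below that at 30x. In males it averaged 6.19 ± 0.71 FPKM at 30000x and 5.97 ± 0.26 FPKM in controls (SD, n = 5 each), all male controls lying above all female controls.

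ENSRNOG00000011503 (1506 bp) had 15.8, 13.6, 14.4, 15.1 and 10.2 FPKM at 30000x, against 23.04, 23.3, 21.6, 23.5 and 18.5 FPKM in controls. Replicate 5 was its lowest library, and the other 4 at 30000x lay within 13.6 to 15.8 FPKM. At 30000x over control the log2 change came to -0.64 (SE 0.13, 95% interval -0.93 to -0.35, limma adjusted p = 0.702), and without replicate 5 it was -0.55 (SE 0.10, limma adjusted p = 0.763). It averaged 21.98 ± 2.09 FPKM in controls, 15.3 ± 5.46 at 30x, 19.4 ± 3.14 at 1000x and 13.8 ± 2.16 at 30000x (SD, n = 5 each). Its libraries at 30x and 1000x reached 24.2 FPKM, above the highest control. In males it averaged 16.6 ± 4.55 FPKM at 30000x and 17.2 ± 3.24 FPKM in controls (SD, n = 5 each).

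ENSRNOG00000016678 (2127 bp) had 20.4, 13.5, 19, 19.1 and 22.3 FPKM at 30000x, against 24.4, 28.5, 53.7, 48.9 and 35.2 FPKM in controls. The libraries at 30000x ran from 13.5 to 22.3 FPKM, while the controls spread more than 2-fold, and the gap between the groups was 22.3 to 24.4 FPKM. It averaged 18.9 ± 3.28 FPKM at 30000x and 38.2 ± 12.7 FPKM in controls (SD, n = 5 each). At 30000x over control the log2 change came to -0.93 (SE 0.22, 95% interval -1.41 to -0.45, limma adjusted p = 0.702), and without replicate 5 it was -0.99 (SE 0.23, limma adjusted p = 0.763). At the lower doses its mean ± SD was 23.6 ± 7.19 FPKM at 30x, and 21.7 ± 7.42 FPKM at 1000x (n = 5 each). The highest libraries of these doses, at 27.3 and 32.3 FPKM, lay inside the controls' range. In males it averaged 23 ± 5.81 FPKM at 30000x and 19.9 ± 6.53 FPKM in controls (SD, n = 5 each).

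**Figure D3:**
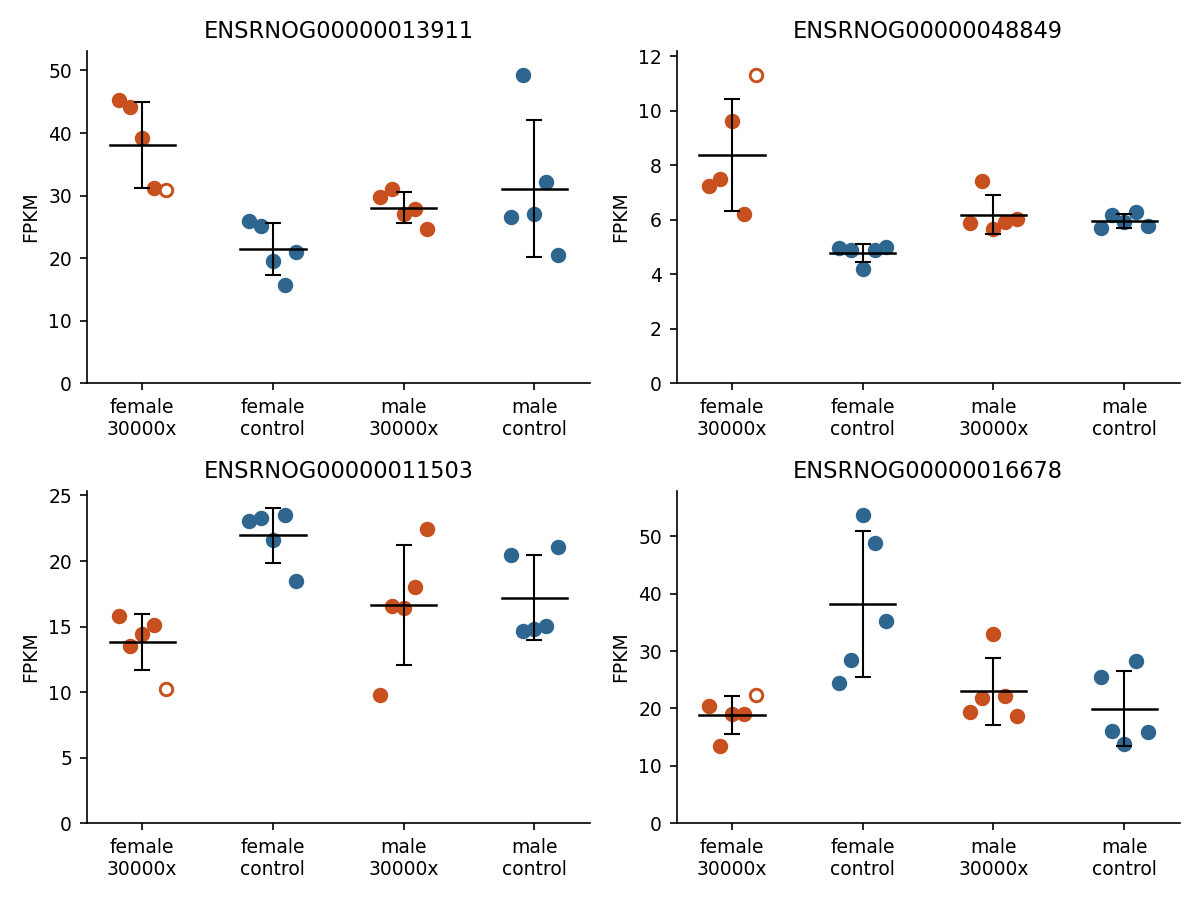
FPKM of the 4 genes in each library (points), with the mean (line) and SD (bars) of 5 libraries, for 30000x and control in females and in males. The open point is female 30000x replicate 5. In females the points at 30000x and the control points do not overlap, a property these genes were selected for, and in males they do.

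Whether the response at 30000x differed between females and males was tested gene by gene, with an interaction term over 20 libraries. Limma called 0 of 13229 genes (0%), with a smallest adjusted p of 0.507, and 1261 genes (9.53%) had an unadjusted p under 0.05. Voom on the recovered reads called 0 as well, with 1291 at an unadjusted p under 0.05. For ENSRNOG00000016678 the female change minus the male change was -1.16 (SE 0.32, limma adjusted p = 0.507), and for ENSRNOG00000013911 it was 0.89 (SE 0.26, limma adjusted p = 0.507). For ENSRNOG00000048849 it was 0.63 (SE 0.17, limma adjusted p = 0.507), and for ENSRNOG00000011503 -0.57 (SE 0.24, limma adjusted p = 0.507). These genes were selected for female groups that do not overlap. The female part of each difference can be too large through that choice, so the differences are a description. Over 12063 genes tested in both sexes, the female and male changes had a Pearson correlation of -0.24 across genes, and 39.4% of genes had the same sign in both. Without female replicate 5 the correlation was -0.18 over 11992 genes, with 41.7% of the same sign. Without male control replicate 2 it was -0.15, with 45.1% of the same sign. The sexes share no library here, but the genes of a library share its scale and its composition, so they are not independent and no p is given.

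The estimated changes ran with the abundance of the gene, and in opposite order in the sexes. This is a description, since genes of a library share its composition. The classes were set, for males too, by the mean FPKM over the 10 female libraries. A gene's class thus depends in part on the female values compared. In females the median log2 change was -0.08 for genes with a mean under 5 FPKM, -0.03 for 5 to 20 FPKM, 0.06 for 20 to 100 FPKM, 0.16 for 100 to 1000 FPKM and 0.33 for 1000 FPKM or more. Beside these, the median over all genes tested was -0.01. Without replicate 5 the medians were -0.05, -0.02, 0.05, 0.14 and 0.29. Among genes measured in both sexes, the male medians in the same classes were 0.05, 0.02, -0.05, -0.11 and -0.17. The male values lean on control replicate 2, without which they were 0.02, 0.01, -0.02, -0.04 and -0.08. Without male 30000x replicate 4 the median at 1000 FPKM or more was -0.07. Of the 38 genes at 1000 FPKM or more, 78.9% had a positive change in females and 7.89% in males. The direction depends on the scaling: after scaling to library totals the median of all female changes was -0.24, and the class of 100 to 1000 FPKM had a median of -0.10 and that of 1000 FPKM or more 0.06. Relative to the median of all genes these 2 classes lay higher. Quantile normalization, which gives every library the same distribution of values, left class medians of -0.01 to 0.01. Library by library, the genes at 100 FPKM or more had a median deviation from the mean of the 10 libraries, in log2 units, of 0.07, 0.04, 0.10, 0.02 and 0.21 at 30000x. In controls it was 0.20, -0.10, -0.24, -0.22 and -0.01. Control replicate 1 thus lay with the libraries at 30000x, above 4 of them, and control replicates 2, 3, 4 and 5 lay below all of them. On the same measure males at 30000x had 0.06, -0.08, -0.18, -0.20 and -0.04, and male controls had -0.02, 0.30, -0.03, -0.01 and -0.12. Male control replicate 2 stood highest, and male 30000x replicate 1 lay above the other 4 controls.

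**Figure D4:**
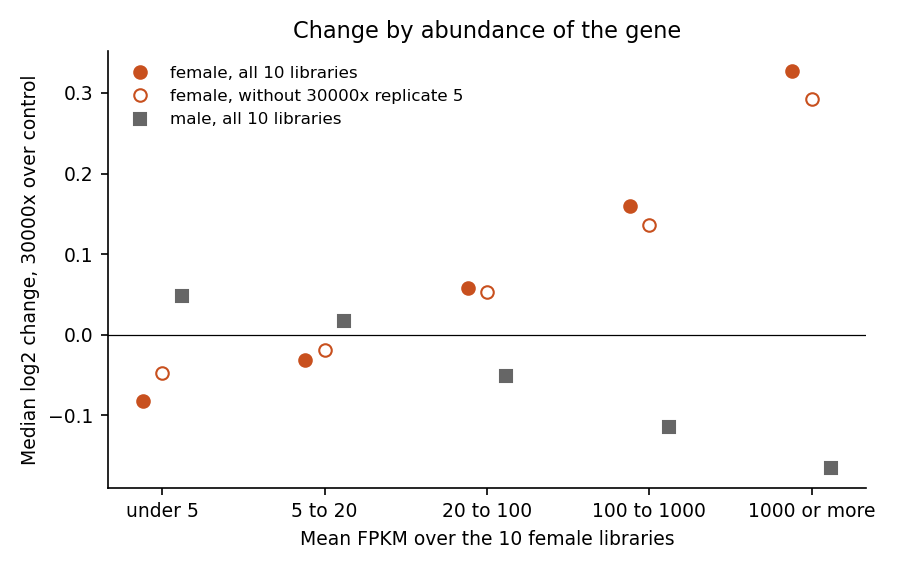
Median log2 change (30000x over control) of genes in 5 classes of mean FPKM, for females with all 10 libraries (filled circles), females without 30000x replicate 5 (open circles) and males (squares). Classes are set by the mean over the 10 female libraries for both sexes. The female medians run from -0.08 in the lowest class to 0.33 in the highest, and the male medians from 0.05 to -0.17.

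How a library's reads were divided among genes was then compared. The 1000 most abundant genes, ranked by their mean share in the 10 libraries, held 62.5%, 64.9%, 67.3%, 63.5% and 70.2% of the recovered reads in the libraries at 30000x. In controls they held 64.1%, 62.1%, 57.1%, 59.1% and 63.6%. The groups overlapped, with control replicates 1 and 5 above the lowest library at 30000x. The mean was 65.7 ± 3.13% at 30000x and 61.2 ± 3.02% in controls (SD, n = 5 each), with p = 0.0635 by exact permutation (two-sided). Adjusted over 7 measures of a library (Benjamini-Hochberg), this p was 0.139. The 100 most abundant genes held 43.5 ± 4.52% at 30000x and 37.7 ± 3.76% in controls (SD, n = 5 each, exact permutation p = 0.0714, adjusted 0.139). Without replicate 5 the exact permutation p was 0.135 for the 1000 most abundant genes and 0.143 for the 100 most abundant. Size factor, sum of FPKM, recovered reads and genes at 1 FPKM or more did not pass either, with adjusted exact permutation p of 0.139 to 0.325. The smallest p this design allows is 0.0079.

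**Figure D5:**
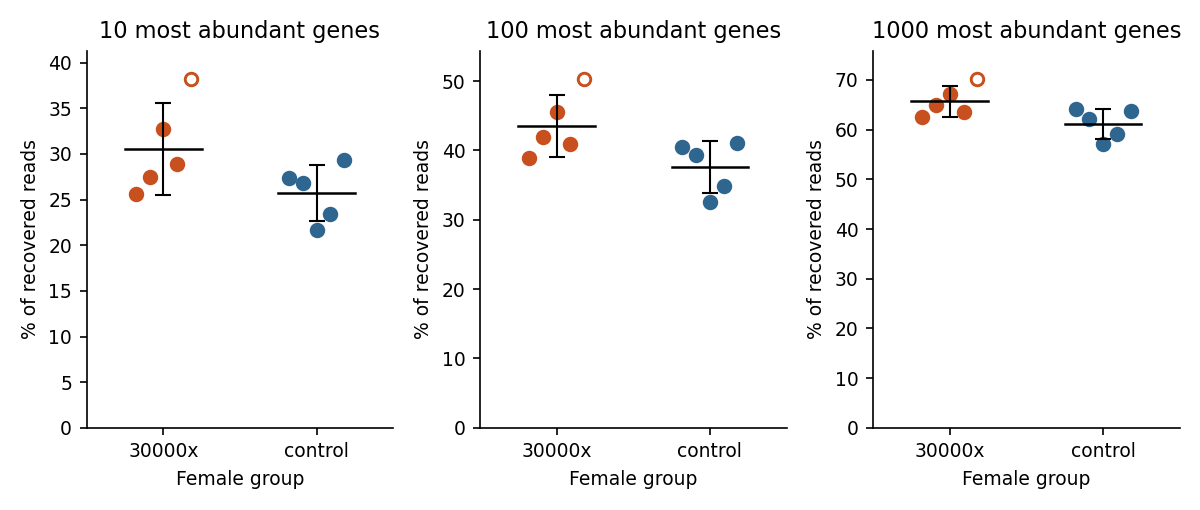
Percent of the recovered reads of a library held by the 10, 100 and 1000 most abundant genes, for females at 30000x and female controls. Points are libraries, lines the mean and bars the SD of 5, and the open point is 30000x replicate 5, the highest in each panel.

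The gene with the most reads, ENSRNOG00000034234 (1545 bp), was chosen after its values were seen. It stood at 52224, 66328, 69587, 55733 and 134159 FPKM at 30000x, against 55216, 53785, 36393, 41308 and 65470 FPKM in controls. Replicate 5 was the highest of the 10 libraries, and the other libraries of the groups overlapped. The gene averaged 50435 ± 11625 FPKM in controls, 74871 ± 22793 at 30x, 58132 ± 9790 at 1000x and 75606 ± 33513 at 30000x (SD, n = 5 each). Without replicate 5 the mean at 30000x was 60968 ± 8304 FPKM (SD, n = 4). The highest library at 30x stood at 111540 FPKM. In replicate 5 it took 15.7% of the recovered reads, in the other 4 libraries at 30000x 8.19% to 9.50% and in controls 6.55% to 9.88%. At 30000x over control the log2 change came to 0.52 (SE 0.34, limma adjusted p = 0.702), and without replicate 5 it was 0.30 (SE 0.33, limma adjusted p = 0.879). All 10 of the genes with the most reads had a positive estimated change, with and without replicate 5, and 1 of them had an unadjusted limma p under 0.05, or 10% against 6.85% of all genes. These genes were ranked over the 10 libraries compared, replicate 5 included. They share the composition of each library, so they are not 10 separate findings.

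The change in the share of reads at 30000x was set against that in males, a test chosen after these values were seen. The share held by the 1000 most abundant genes differed between 30000x and controls by 4.45 percentage points in females and by -1.40 in males. The male value was -0.64 without male control replicate 2, -0.67 without male 30000x replicate 4 and -2.11 without male 30000x replicate 1. The difference between the sexes was 5.86 percentage points (exact permutation of the dose labels within each sex, p = 0.0248, adjusted 0.0392 over 3 gene sets). For the 100 most abundant genes it was 7.42 percentage points (exact permutation p = 0.0261, adjusted 0.0392), and for the 10 most abundant 6.18 (exact permutation p = 0.0517, adjusted 0.0517). These genes were ranked over the 10 female libraries. Ranked over the 20 libraries of both sexes instead, the difference for the 1000 most abundant was 6.15 (adjusted exact permutation p = 0.038). Dose labels were permuted within each sex, so each p refers to no dose effect in either sex, not to equal effects in both. Without female 30000x replicate 5 the difference for the 1000 most abundant genes was 4.71 percentage points (exact permutation p = 0.05, adjusted 0.0806), and for the 100 most abundant 5.72 (adjusted exact permutation p = 0.0806). In females the share of the 1000 most abundant genes was 61.2 ± 3.02% in controls, 66.5 ± 3.64% at 30x, 63.7 ± 2.06% at 1000x and 65.7 ± 3.13% at 30000x (SD, n = 5 each), with no steady order over dose. Leaving out each of the 20 libraries in turn gave differences of 4.71 to 6.66 percentage points for the 1000 most abundant genes, with adjusted exact permutation p of 0.0176 to 0.0836. The adjusted p passed 0.05 upward for both the 100 and the 1000 most abundant genes without female 30000x replicate 3 or 5, female control replicate 2, 3 or 4, male 30000x replicate 2, 3 or 4, or male control replicate 2.

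The estimated changes were also described by gene length, as solved from the FPKM. Genes under 500 bp had a median log2 change of 0.07 with all 10 libraries and 0.15 without replicate 5, and genes of 500 to 1500 bp 0.04 and 0.05. Genes of 3000 to 6000 bp had -0.05 and -0.03, and genes of 6000 bp or more -0.05 and -0.03. Of the genes under 500 bp, 88 of 865 (10.2%) had an unadjusted limma p under 0.05, 68 higher and 20 lower, beside 6.85% of all genes. Of the genes of 6000 bp or more, 28 of 705 (3.97%) did, 11 higher and 17 lower. The part of RNA quality or library preparation in these values was not tested.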

How the data were processed

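RNA was extracted from adrenal glands with a Qiagen column kit and sequenced in pairs on Illumina flow cells, per the labels' protocols. HISAT2 2.0.5 and featureCounts 1.5.0-p3 are named in the submitters' processing notes. Not given in the sources used here: genome build, annotation, strand setting. The deposited FPKM are the authors' values per gene and library, for 32545 Ensembl identifiers.

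The deposited FPKM behaved as whole reads divided by gene length and a size factor. Each gene's length was solved as the smallest that put all its values within 0.05 of a whole read, with no annotation used. All 20717 genes with a value in 3 or more libraries had such a length. That 100.0% of their 680244 values above 0 came within 0.05 is thus set by the solution. A solved length, and the reads with it, can fall short of the true one, most easily where a gene has few values. The size factors matched a median of ratios over 12993 genes. The recovered reads were used for depth, shares of reads and an added voom fit.

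Genes reaching 1 FPKM in 5 or more of the 10 female libraries were tested with limma 3.58.1 (R 4.3.3, trend) on log2(FPKM + 1), with Benjamini-Hochberg adjustment over all genes tested and a threshold of 0.05. The sex difference was an interaction over 20 libraries. Measures of a library were compared by exact two-sided permutation. Of these, only the limma fit to the 10 female libraries was run on simulated data, and the outcome is not given here. The simulation drew each gene independently, without an outlying library or a shift in composition. The interaction, the voom fit and the permutations were not simulated. Alternatives were a pseudocount of 0.1, other filters and scalings, quantile normalization, library weights, all 20 female libraries, a replicate block, voom and each library left out.

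The libraries and lists were chosen with earlier results of these data known. No identifier matched the gene table used here, so the planned lists of pathway and marker genes could not be applied. Named genes were the 2 highest-ranked in each direction by p among genes averaging 5 FPKM or more in either group whose groups do not overlap. Others named were those farthest from the other libraries in 30000x replicate 5, and, chosen after their values were seen, the gene with the most reads and a gene called in 1 alternative.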

Additional observations from a re-analysis of the deposited data

Results flagged for a closer look

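In groups of 5 libraries, a value was looked at again when the gap to its nearest neighbour took up most of the range of its group (Dixon's test at 95%). This was applied to 7 measures of a library and the correlation within a group, in females at 30000x and controls, and to the FPKM of the 10 genes named, in 6 groups. Of 76 groups of values examined, 16 held such a value, where chance gives about 1 in 20. Replicate 5 was known to stand apart, and several genes were named for single libraries, so the 2 numbers are not to be compared.

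Replicate 5 of the female 30000x group was such a library by 2 measures. It held 11905 genes at 1 FPKM or more, while the other 4 held 12390 to 12582. Its median correlation with its group was 0.8993, while the other 4 had 0.9566 to 0.9583.

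Genes named for their values in this library, or for the most reads, gave 4 more there. ENSRNOG00000021029 stood at 1019 FPKM, with the other 4 at 3.988 to 109.0, and ENSRNOG00000038205 at 298.4 FPKM, with the other 4 at 20.46 to 30.04. ENSRNOG00000032997 stood at 0 FPKM, with the other 4 at 230.0 to 251.0, and ENSRNOG00000034234 at 134159 FPKM, with the other 4 at 52224 to 69587.

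Single libraries of other groups gave the rest. ENSRNOG00000021029 stood at 157.2 FPKM in 1 female library at 1000x, with the other 4 at 6.926 to 45.95, and at 232.5 FPKM in 1 male control, with the other 4 at 36.8 to 82.68. ENSRNOG00000038205 stood at 20.37 FPKM in 1 female library at 1000x, with the other 4 at 22.07 to 22.55. ENSRNOG00000032609 stood at 98.38 FPKM in 1 male control, with the other 4 at 47.09 to 54.37. ENSRNOG00000048849 stood at 7.429 FPKM in 1 male library at 30000x, with the other 4 at 5.659 to 6.047, and at 4.19 FPKM in 1 female control, with the other 4 at 4.878 to 5.008. ENSRNOG00000016678 stood at 10.8 FPKM in 1 female library at 30x, with the other 4 at 26.11 to 27.28, and at 33.03 FPKM in 1 male library at 30000x, with the other 4 at 18.6 to 22.18. ENSRNOG00000053931 stood at 7.517 FPKM in 1 male library at 30000x, with the other 4 at 0.9261 to 2.418, and at 4.884 FPKM in female control replicate 3, with the other 4 at 0 to 0.47. The last gene was named because leaving out that control led to a call.

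The change in the share of reads at 30000x differed between females and males by 7.423 percentage points for the 100 most abundant genes and by 5.857 for the 1000 most abundant (exact permutation within each sex, adjusted p = 0.0392 for both). Without female 30000x replicate 5 the adjusted exact permutation p was 0.0806 for both. The test was chosen after these values were seen, which the adjustment does not cover. Its p refers to no dose effect in either sex, not to equal effects in both. For the change in females alone, the exact permutation p adjusted over 7 measures was 0.139 for both gene sets.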

How the results depend on the processing

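The number of genes called at 30000x in females was 0 in every alternative but 1: it was 0 to 1 when a library was left out, and 1 without female control replicate 3 (limma adjusted p = 0.021). Without female 30000x replicate 4 no gene was called, but the smallest limma adjusted p, 0.0586, lay near the threshold. The interaction called 0 genes in all 28 alternatives. The 4 genes named by rule kept their direction in all 20 alternatives and passed the adjusted threshold in none. The count at an unadjusted p under 0.05, 852, was 1605 after scaling to library totals (110 higher, 1495 lower), 1564 with library weights, 1309 with all 20 female libraries, and 463 to 1302 when a library was left out, with 463 without control replicate 3, 509 without control replicate 4 and 1302 without control replicate 1. For the interaction, 1261 was 2670 after scaling to library totals (107 higher, 2563 lower), 1988 with library weights and 808 without female control replicate 3. The causes were not tested. Replicate numbers are shared between the groups, and the main fit did not read them as pairs. Deviations of libraries with the same number correlated by -0.09 to 0.14, and 3 of 5 libraries at 30000x correlated best with their own number. These values do not settle whether the numbers mark pairs. With a replicate block 0 genes were called and 1068 had an unadjusted p under 0.05. The smallest limma adjusted p was 0.44 with the block and 0.702 in the main fit. For the share of reads, the difference between the sexes when a library was left out ran from 4.27 to 7.43 percentage points for the 10 most abundant genes (7 of 20 under an adjusted p of 0.05), 5.72 to 8.59 for the 100 (11 of 20) and 4.71 to 6.66 for the 1000 (11 of 20). With genes ranked within each library the 10 most abundant gave 6.31 (adjusted exact permutation p = 0.0476). These permutation p refer to no dose effect in either sex, not to equal effects in both. The median half-width of a gene's 95% interval was 0.87 for genes under 500 bp, 0.51 for genes under 5 FPKM and 0.56 for genes at 1000 FPKM or more.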
